A study of Mus musculus with 37 samples.

Results

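Interferon-stimulated genes, 43 of the 24421 gene symbols in the count table, were followed across 37 whole transcriptome sequencing (WTS) libraries of the mouse urinary tract. They were taken by symbol alone, as a list of genes that interferons are known to induce, and the list was drawn up with earlier results of these data known. They fall into a type I class of 10 genes (Ifit1, Ifit2, Ifit3, Oas1a, Oas2, Oas3, Oasl1, Oasl2, Mx1 and Mx2), a gamma class of 11 genes (Gbp2, Gbp3, Gbp5, Gbp6, Gbp7, Irgm1, Irgm2, Igtp, Iigp1, Tgtp1 and Ifi47) and 22 others, which comprise 6 signalling and feedback genes, 5 sensors of nucleic acid and 11 further effectors.

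Wild-type (WT) female BALB/c mice received N-butyl-N-(4-hydroxybutyl)nitrosamine (BBN), a carcinogen that acts on the urothelium, and their upper urinary tract and bladder were read. BBN was taken at 0.05% in drinking water from an age of 6 to 7 weeks, for 17 to 20 weeks by the methods and 18 weeks by the design text, and controls drank tap water. UT comprised 11 ureter libraries labelled as the cancer side from 10 BBN mice (UT 5R and UT 5L are the right and left sides of 1 mouse), UN comprised 7 ureters labelled as the non-cancer side of BBN mice, and U comprised 6 ureters, right and left, from 3 tap water mice. The bladders came from the same 10 BBN mice and from the 3 tap water mice, so that UT, UN and bladder libraries with 1 number share a mouse. The BBN bladders carry no label of cancer (the library name of bladder 6 has a T), and UN tissue shares the mouse and the carcinogen with UT.

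Interferons are secreted proteins that make cells resistant to viruses and alert the immune system. Type I interferons (IFN-alpha and IFN-beta) act on genes through the interferon-stimulated response element (ISRE), to which IRF9 and STAT2 are recruited, whereas IFN-gamma, made mainly by T and NK cells, acts through the gamma-activated site (GAS). The classes overlap: guanylate-binding proteins (GBPs) and immunity-related GTPases (IRGs) are strongly induced by IFN-gamma but also respond to type I interferon, and most genes of the type I class respond weakly to IFN-gamma. In tumours these genes have been read as a trace of DNA or RNA sensing inside cells and of lymphocyte activity.

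Promoters of a few members of each class are shown for the ISRE and GAS letters they hold. Of the 43 genes, 33 had a promoter in RefSeq (GRCm38.p6), read from 250 bases before the start site to 50 after it. The ISRE core, searched as GAAANNGAAA and its reverse complement TTTCNNTTTC, was present in 21 of these 33 and in 3.44% of all 32851 promoters of that length. The GAS core, TTCNNNGAA, which reads alike on both strands, was present in 11 of the 33 and in 8.3% of all promoters, and both cores in 8 of the 33 and in 0.454% of all. Of 9 gamma class promoters 8 held the ISRE core and 5 held both, against 4 and 1 of 7 type I class promoters. Below, no match to a core overlaps a match to the other core, but ISRE matches can overlap each other, as the 3 in Isg15 do. A match is a description of the letters and shows no binding. The stretches below are printed 5′ to 3′ on the strand of the gene, in GRCm38 coordinates, with each match in capitals; the first 4 hold ISRE cores alone, the next 4 hold both, and Irf1 holds a GAS core alone.
Ifit1, chr19:34640769-34640828, plus strand: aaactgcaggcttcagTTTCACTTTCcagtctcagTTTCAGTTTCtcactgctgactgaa
Ifit3, chr19:34583359-34583428, plus strand: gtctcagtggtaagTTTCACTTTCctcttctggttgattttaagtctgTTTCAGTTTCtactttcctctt
Isg15, chr4:156200859-156200918, minus strand: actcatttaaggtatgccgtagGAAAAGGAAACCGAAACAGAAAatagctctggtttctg
Oas3, chr5:120777700-120777759, minus strand: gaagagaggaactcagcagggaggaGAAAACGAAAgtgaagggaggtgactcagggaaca
Irgm2, chr11:58214877-58214936, plus strand: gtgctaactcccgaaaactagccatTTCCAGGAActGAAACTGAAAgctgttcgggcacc
Igtp, chr11:58199486-58199545, plus strand: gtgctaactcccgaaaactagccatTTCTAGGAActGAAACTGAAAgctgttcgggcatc
Tgtp1, chr11:48992297-48992356, minus strand: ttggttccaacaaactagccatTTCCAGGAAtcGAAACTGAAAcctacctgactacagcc
Gbp7, chr3:142530216-142530305, plus strand: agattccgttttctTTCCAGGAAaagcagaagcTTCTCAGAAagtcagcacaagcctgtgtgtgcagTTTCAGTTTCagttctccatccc
Irf1, chr11:53769894-53769953, plus strand: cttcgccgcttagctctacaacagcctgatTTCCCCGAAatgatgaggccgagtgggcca

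In Ifit1, of the type I class, 2 ISRE cores lie in the 60 bases shown. Irgm2 and its neighbour Igtp, and Tgtp1, elsewhere on chromosome 11, carry a GAS core followed by an ISRE core in nearly the same letters. The annotated spans of Irgm2 and Igtp overlap on 1 strand, so their reads may be shared. Both cores were absent in these windows from Oasl1, Oasl2, Ifi47, Irf7, Irf9, Cmpk2, Ifi44, Xaf1 and Samd9l, and Oas2, Mx1, Mx2, Gbp6, Iigp1, Usp18, Dhx58, Zbp1, Rtp4 and Parp14 had no entry. The families lie in clusters. Ifit1 to Ifit3 are within chr19:34550694-34650009 and the Oas genes within chr5:120730333-120907521, Gbp2, Gbp3, Gbp5 and Gbp7 are within chr3:142493978-142638008, and Irgm1, Tgtp1 and Ifi47 are within chr11:48861968-49096974 (GRCm38, GENCODE annotation).

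Libraries held 3557697 to 18793560 estimated counts (median 13874286), with the lowest totals in BBN bladder (from 3557697) and UN (from 4675081). Values are given as CPM, the usual scaling of counts to the library total. Urothelial markers summed to 38.3 CPM in UN 2 against at least 1025 CPM in every other library, so UN 2 all but lacked the markers of the tissue it is labelled as, and kidney tubule markers summed to 2303 CPM in UT 4 against at most 46.4 in the others. UN 6 and BBN bladders 1, 3 and 4 had the lowest RNA integrity numbers, and in UN 6 10 genes took 35.5% of the counts. UT 2 was the highest UT library for 42 of the 43 members (all but Oas3, highest in UT 5L), UN 7 the highest UN library for 35 and untreated bladder 3 the highest of its 3 for 39.

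A class score, the mean over the genes of a class of log2(CPM + 1), places each library on both scales at once. The type I score was 2.16 to 2.96 in U (median 2.43), 2.21 to 5.03 in UN (3.15) and 3.62 to 7.72 in UT (4.81). All 11 UT libraries lay above all 6 U libraries, and UN reached from the U range into the UT range. In bladder it was 2.31, 2.38 and 2.49 in the untreated libraries and 3.05 to 7.13 (median 5.12) after BBN, with no overlap. The gamma score was 5.05 to 6.12 in U (median 5.47), 3.79 to 6.13 in UN (5.16), 4.31 to 8.51 in UT (5.90), 4.11, 4.28 and 6.31 in untreated bladder and 3.84 to 6.68 (4.75) in BBN bladder, and in both organs the BBN and the tap water libraries overlapped. Type I less gamma score was at most -2.58 in U and at least -1.80 in UT, and UN lay between -2.53 and -0.87.

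**Figure D1:**
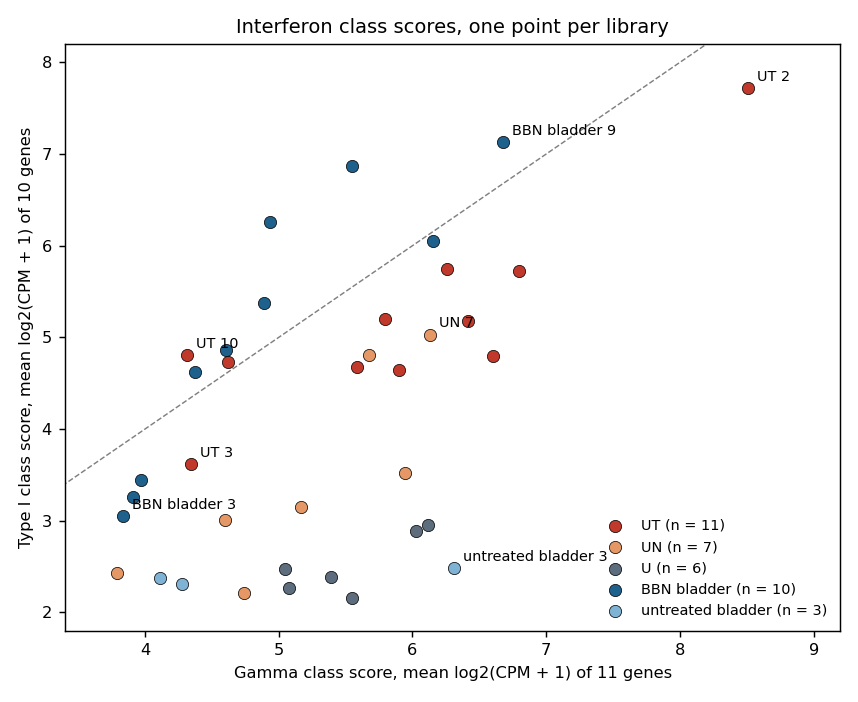
Each point is 1 of the 37 libraries, with its gamma class score and its type I class score (mean log2(CPM + 1) over 11 and 10 genes) on the axes, coloured by group, and the dashed line marks equal scores. U and untreated bladder lie low on the type I scale between 2.16 and 2.96, UT and BBN bladder reach 7.72 and 7.13, and the gamma scores of the groups overlap.

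UT against U asked how the members stood in cancer side ureter beside ureter never exposed to BBN. In edgeR (quasi-likelihood test, Benjamini-Hochberg adjustment over 15658 genes) 29 of the 43 members were higher in UT (adjusted p under 0.1 and at least 2-fold, here "called") and 0 were lower, where 18.7% of all genes tested were called higher and 12.3% lower. The median log2 fold change was 1.84 over the members and 0.11 over all genes. Of the type I class 9 of 10 rose with a median of 3.09, and of the gamma class 3 of 11 rose with a median of 0.40, a difference of 2.69. Every UT library exceeded every U library for 25 members, where 14.9% of all genes did so, and lay below it for 0, against 4.38%. Of the 25 members 7 were of the type I class and 2 of the gamma class. After TMM scaling, which corrects for a few dominant genes, 19 members did so, 7 of the type I and 1 of the gamma class, against 9.15% of all genes. Ifi47, Socs1, Dhx58, Ifi35, Parp14 and Xaf1 overlapped after that scaling, and the overlaps given by gene below are in CPM. Fewer cells of a type and less RNA per cell cannot be told apart in bulk tissue. The U libraries are both sides of 3 mice. With the sides of a mouse summed 25 members rose, and 25 rose and Gbp6 was called lower in a limma fit in which mouse was a random effect.

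Ifit proteins bind viral RNA that lacks the cap marks of the host. Ifit1 was at 4.27 to 12.1 CPM (median 6.803) in U, 6.58 to 96.2 (median 19.1) in UN and 36.9 to 442 (median 75.8) in UT. Each UT library lay above each U library, and UN spanned the gap between them. The log2 fold change of UT against U was 4.01 ± 0.61 (SE), with an adjusted p of 6.15e-05. Ifit3 ranged over 6.76 to 22.1 CPM (median 12.2) in U, 4.73 to 61.2 (median 17.1) in UN and 12.9 to 310.0 (median 44.6) in UT, a log2 fold change of 2.50 ± 0.65 (adjusted p = 0.00364), with overlap; it has a near copy, Ifit3b, with which reads may be shared. Ifit2 showed the smallest rise of the family, from 8.95 to 21.3 CPM (median 15.8) in U to 12.1 to 167 (median 38.5) in UT (1.46 ± 0.50, adjusted p = 0.0216), and at 4.06 to 56.4 (median 17.97) its UN libraries lay on both sides of the U range.

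The OAS enzymes make 2′-5′ oligoadenylates that switch on RNase L when double-stranded RNA is present, and Oasl1 is a relative that lacks that activity. Oasl1 had the largest log2 fold change of the members, 5.23 ± 0.82 (adjusted p = 8.12e-05), from 0.911 to 3.88 CPM (median 1.65) in U through 4.06 to 56.5 (median 15.8) in UN to 18.0 to 452 (median 32.1) in UT. Both BBN groups lay above U in every library. Oas3 was low in U, at 0.547 to 2.39 CPM (median 1.04), and reached 2.24 to 28.7 (median 4.08) in UN and 9.35 to 114 (median 29.4) in UT (4.95 ± 0.69, adjusted p = 2.81e-05). No UT library overlapped U for Oas3, while the lowest UN library fell just inside the U range. Oas2 rose by 3.21 ± 0.65 on the log2 scale (adjusted p = 0.000523), from 1.11 to 8.73 CPM (median 5.54) to 10.2 to 252 (median 37.8), with UN at 3.14 to 51.6 (median 9.06). Oasl2 rose by 2.81 ± 0.58 (adjusted p = 0.000655), from 10.4 to 21.3 CPM (median 12.9) to 28.2 to 443 (median 75.5), with UN at 2.995 to 102 (median 25.1). In both genes the UT libraries lay above the U libraries, and UN reached below the U median in at least 1 library. Oas1a, the member of the class that was not called (2.98 ± 1.62, adjusted p = 0.138), is described separately below.

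The Mx proteins are dynamin-like GTPases that trap viral components, Mx1 in the nucleus and Mx2 in the cytoplasm of mouse cells. Mx1 was scarcely detected in U, at 0.578 to 1.14 CPM (median 0.8697), and it was at 1.07 to 24.3 (median 2.098) in UN and 7.13 to 68.2 (median 17.5) in UT. Its log2 fold change in UT was 4.28 ± 0.64 (adjusted p = 5.31e-05). Mx2 rose by 2.48 ± 0.57 (adjusted p = 0.00146), from 1.14 to 3.51 CPM (median 2.12) in U to 4.97 to 52.1 (median 9.53) in UT, with UN at 0.777 to 14.96 (median 4.47). For both genes UT and U did not overlap, and the lowest UN libraries lay within or below the U range.

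**Figure D2:**
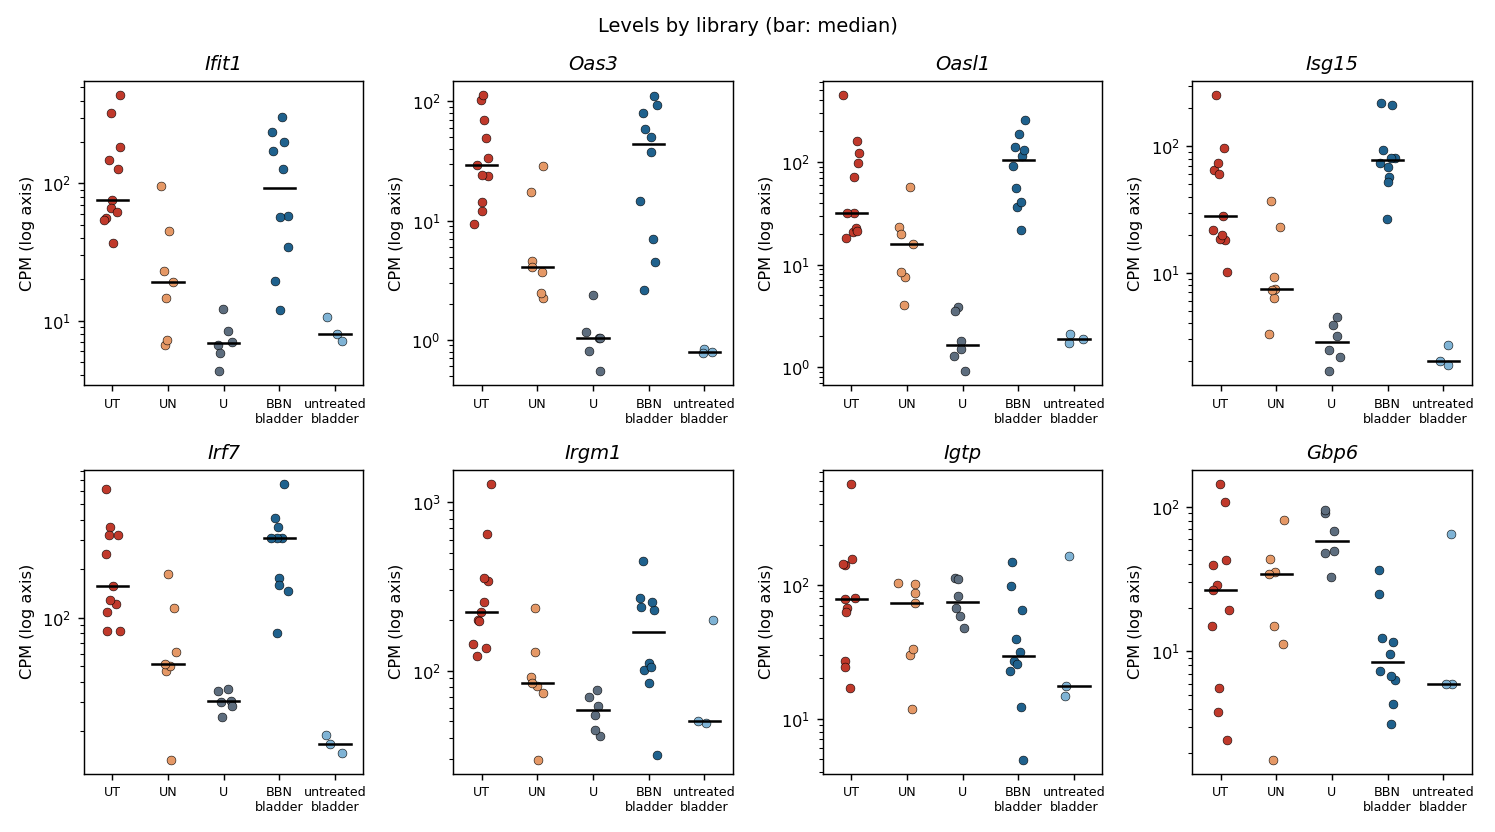
The CPM of Ifit1, Oas3, Oasl1, Isg15, Irf7, Irgm1, Igtp and Gbp6 is drawn for every library on a log axis, by group, with a bar at the group median. For Oasl1 the UT libraries (18.0 to 452 CPM) clear the U libraries (0.911 to 3.88 CPM), whereas for Igtp the U median of 74.7 CPM lies beside the UT median of 78.4 CPM.

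The gamma class was already well expressed in U and most of its genes were not called. IRG proteins are GTPases that act on the vacuoles of intracellular pathogens and split into regulators (Irgm1, Irgm2 and Igtp, also called Irgm3) and effectors (Iigp1, Tgtp1 and Ifi47). Irgm1 stood apart from the other regulators: it was at 40.8 to 76.6 CPM (median 58.2) in U, 29.4 to 234 (median 84.1) in UN and 122 to 1294 (median 223) in UT, with no overlap between UT and U and a log2 fold change of 2.35 ± 0.47 (adjusted p = 0.000486). Igtp was at 47.4 to 112 CPM (median 74.7) in U and 17.03 to 571 (median 78.4) in UT (0.40 ± 0.58, adjusted p = 0.598), and Irgm2 at 35.3 to 78.8 (median 46.4) and 15.5 to 380.0 (median 57.7) (0.41 ± 0.50, adjusted p = 0.531). UT libraries of both lay below, within and above the U range, and UN was at 11.9 to 104 (median 73.0) for Igtp and 12.96 to 68.4 (median 42.5) for Irgm2.

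Of the effector GTPases, Ifi47 rose by 2.27 ± 0.52 on the log2 scale (adjusted p = 0.00137), from 12.1 to 29.6 CPM (median 20.3) in U to 32.3 to 511 (median 75.9) in UT, with every UT library above every U library and UN at 11.7 to 74.6 (median 34.8). Tgtp1 rose by 1.84 ± 0.75 (adjusted p = 0.0499), from 31.6 to 80.6 CPM (median 49.8) to 20.2 to 1474 (median 98.8), with overlap and UN at 10.8 to 119 (median 47.8). After TMM scaling UT 2 held 1428 CPM of Tgtp1 and the next UT library, UT 5L, 163 CPM, so the fold leaned on UT 2. Its near copy Tgtp2 may share the reads of Tgtp1. Iigp1 was at 62.5 to 284 CPM (median 131) in U, 11.3 to 185 (median 112) in UN and 9.06 to 788 (median 102) in UT (-0.08 ± 0.70, adjusted p = 0.938), a spread of UT that enclosed the whole U range.

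GBPs are large GTPases that coat and break open pathogen vacuoles, and none of the 5 measured was called. Gbp2 was at 55.04 to 86.8 CPM (median 65.4) in U, 21.7 to 79.2 (median 54.1) in UN and 35.2 to 376 (median 82.7) in UT (0.40 ± 0.41, adjusted p = 0.453). Gbp3 was at 29.4 to 62.4 CPM (median 42.2), 13.8 to 47.6 (median 25.4) and 17.6 to 219.7 (median 52.5) in the same order (0.42 ± 0.45, adjusted p = 0.465). For both, UT lay on either side of U. Gbp7 was at 49.5 to 112 CPM (median 65.2) in U, 16.9 to 89.3 (median 57.5) in UN and 30.4 to 253 (median 71.9) in UT, a log2 fold change of -0.04 ± 0.41 (adjusted p = 0.95). The scarce Gbp5 was at 2.74 to 6.03 CPM (median 4.201), 0.836 to 8.55 (median 2.75) and 0.7903 to 27.4 (median 5.498) in turn, a log2 fold change of 0.36 ± 0.60 (adjusted p = 0.644). In these genes too UT libraries lay both below and above the U range. Gbp6, which has a near copy in Gbp10, was at 32.6 to 94.4 CPM (median 58.2) in U, 1.78 to 80.7 (median 33.95) in UN and 2.43 to 144 (median 26.5) in UT, a log2 fold change of -0.91 ± 0.68 (adjusted p = 0.287). Its UT and UN medians were below the lowest U library or close to it. Without UT 2 the gamma median of UT against U went from 0.40 to -0.21, 25 members rose and Gbp6 was called lower. The gamma median was -0.11 by limma-trend and in the limma fit in which mouse was random.

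Among the signalling and feedback genes 4 of 6 rose in UT. Irf7, the factor that amplifies type I interferon genes, was at 24.4 to 36.3 CPM (median 30.4) in U, 13.3 to 184 (median 51.6) in UN and 82.1 to 619 (median 156) in UT (2.64 ± 0.45, adjusted p = 0.000151), and its UT and U libraries did not overlap. Usp18, a protease that removes ISG15 and dampens the type I receptor, went from 11.2 to 18.3 CPM (median 13.7) to 66.9 to 514 (median 134) (3.31 ± 0.49, adjusted p = 5.01e-05), with UN at 6.84 to 127 (median 55.4). Irf9, the DNA-binding subunit of the ISRE complex, showed a smaller and tighter rise, from 20.7 to 34.1 CPM (median 29.2) to 52.5 to 168 (median 89.2) (1.44 ± 0.20, adjusted p = 3.6e-05), with UN at 30.9 to 86.1 (median 46.6). Socs1, an inhibitor of the receptor kinases, rose by 1.86 ± 0.57 (adjusted p = 0.0109), from 2.23 to 4.27 CPM (median 3.64) to 4.53 to 78.0 (median 7.94), with UN at 2.65 to 12.6 (median 4.84). Usp18, Irf9 and Socs1 all had every UT library above every U library. The other two were not called. Stat2, at 27.02 to 55.2 CPM (median 37.2) in U, 13.7 to 104 (median 25.6) in UN and 36.9 to 260.3 (median 70.7) in UT, missed the 2-fold mark (0.84 ± 0.37, adjusted p = 0.0655). Irf1, a transcription factor that IFN-gamma induces strongly, was at 65.8 to 122 CPM (median 89.7) in U, 40.6 to 139 (median 96.4) in UN and 90.9 to 614 (median 126) in UT (0.67 ± 0.34, adjusted p = 0.115).

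Isg15, a ubiquitin-like protein that is attached to many others, was at 1.67 to 4.47 CPM (median 2.82) in U, 3.31 to 36.9 (median 7.41) in UN and 10.2 to 256 (median 28.2) in UT, with no overlap between UT and U (4.09 ± 0.68, adjusted p = 0.000124). Of the 10 other effectors 9 rose. Ifi44 was the largest at 3.69 ± 0.71, adjusted p = 0.000372, from 4.84 to 13.04 CPM (median 6.64) to 25.1 to 474 (median 77.6). Xaf1, a pro-apoptotic partner of XIAP, rose by 2.08 ± 0.40, Trim30a, a ubiquitin ligase, by 2.03 ± 0.37, Rtp4 by 1.91 ± 0.38 and Samd9l, an antiviral inhibitor of translation, by 1.70 ± 0.33. Every UT library lay above every U library for these 5. The neighbours Cmpk2 (1.58 ± 0.57, adjusted p = 0.0291), a nucleotide kinase, and Rsad2 (1.49 ± 0.63, adjusted p = 0.0561; viperin, which makes a chain-terminating nucleotide) rose less, from 11.8 to 15.6 CPM (median 12.4) to 9.32 to 187 (median 30.4) and from 9.24 to 16.6 CPM (median 13.3) to 7.51 to 179 (median 20.1), with overlap. Parp14, an ADP-ribosyltransferase, rose by 1.398 ± 0.31 and Bst2, which tethers budding virus, by 1.11 ± 0.32. Ifi35 passed the p but not the 2-fold mark (0.88 ± 0.23, adjusted p = 0.00345).

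Of the sensors 3 of 5 rose. Zbp1, which senses Z-form nucleic acid, went from 2.85 to 7.396 CPM (median 4.81) in U through 10.8 to 45.9 (median 15.8) in UN to 16.2 to 295 (median 41.6) in UT (3.52 ± 0.60, adjusted p = 0.000144), and both BBN groups lay above U in every library. Dhx58 (LGP2) rose by 2.004 ± 0.42 and Ddx58 (RIG-I) by 1.39 ± 0.29. Both had every UT library above every U library, at 11.1 to 97.4 (median 25.99) against 4.95 to 10.02 (median 5.72) CPM for Dhx58 and 40.9 to 171 (median 84.1) against 15.8 to 32.9 (median 27.8) for Ddx58. Ifih1 (MDA5), at 0.62 ± 0.28, adjusted p = 0.0749, and Eif2ak2 (PKR, which halts translation), at 0.95 ± 0.26, adjusted p = 0.00552, stayed under 2-fold.

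**Figure D3:**
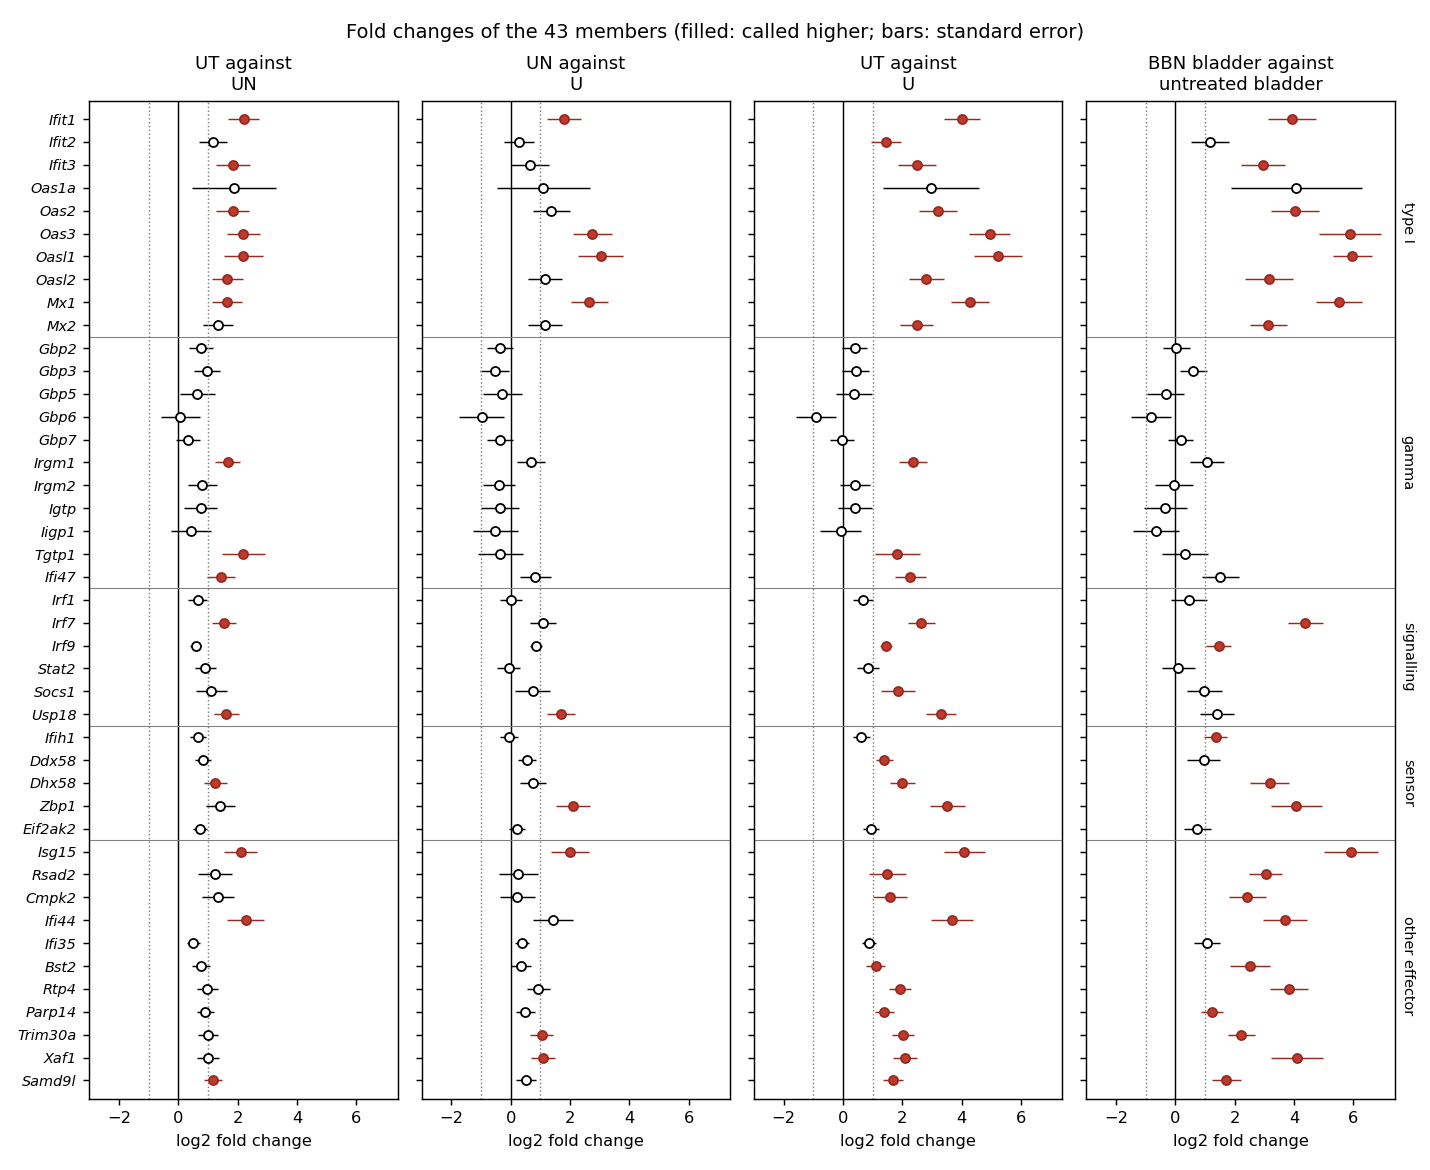
Log2 fold changes of the 43 members are plotted in the 4 comparisons, grouped by class, with bars of 1 SE and filled points for called genes. In UT against U the type I class has a median of 3.09 and the gamma class 0.40, and no filled point lies below 0 in any of the 4 comparisons.

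UN against U compared ureter without microscopic cancer from BBN mice with ureter from tap water mice, the same U libraries as above. Of the members 9 rose and 0 fell, where 12.5% of all genes tested were called higher and 1.21% lower. The median log2 fold change was 0.66 over the members and 0.13 over all genes, 1.27 in the type I class and -0.36 in the gamma class. The 9 were Ifit1 (1.81 ± 0.57, adjusted p = 0.0385), Oas3 (2.76 ± 0.65, adjusted p = 0.00826), Oasl1 (3.03 ± 0.76, adjusted p = 0.0125), Mx1 (2.65 ± 0.62, adjusted p = 0.00828), Usp18 (1.69 ± 0.48, adjusted p = 0.0216), Isg15 (1.99 ± 0.64, adjusted p = 0.0418), Zbp1, Trim30a and Xaf1. Irf9 passed the p alone (0.86 ± 0.21, adjusted p = 0.0119). The type I genes not called had positive folds too, Oas2 at 1.38 ± 0.63, adjusted p = 0.144, Oasl2 at 1.16 ± 0.57, adjusted p = 0.179, Mx2 at 1.16 ± 0.57, adjusted p = 0.182, Oas1a at 1.10 ± 1.58, adjusted p = 0.671, Ifit3 at 0.66 ± 0.64, adjusted p = 0.513 and Ifit2 at 0.28 ± 0.52, adjusted p = 0.752. Irf7 (1.09 ± 0.44, adjusted p = 0.104), Socs1 (0.75 ± 0.59, adjusted p = 0.407), Irf1 (0.01 ± 0.37, adjusted p = 0.987) and Stat2 (-0.07 ± 0.39, adjusted p = 0.929) did not pass. Of the gamma class 0 were called, Irgm1 at 0.69 ± 0.46, adjusted p = 0.326 and Ifi47 at 0.83 ± 0.52, adjusted p = 0.286 had positive folds, and the other 9 had negative folds from -0.98 (Gbp6) to -0.28 (Gbp5). Every UN library exceeded every U library for 2 members, Oasl1 and Zbp1, where 2.09% of all genes did so, and lay below it for 0, against 1.3%. After TMM scaling 5 members did so, with Oas3, Irf9 and Isg15 added, against 2.41% of all genes.

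These calls depend on how the U libraries are counted. With the sides of each tap water mouse summed, which leaves 3 U samples, the same test called 0 members. Of all 16322 genes tested it called 147 higher and 10 lower. The unadjusted p was under 0.05 for 8 of the 43 members, as for 2555 of these genes, a share near the background. The limma fit in which mouse was random called 1 member, where 751 of 15658 genes were called higher and 550 lower. The type I less gamma difference of medians was 1.64 and 1.71 in these fits beside 1.63. Without UN 2, whose urothelial markers were near 0, 8 members were called and the gamma median was -0.46. Without UN 7 5 were called and the member median went from 0.66 to 0.37, and without UN 3 the gamma median was -0.21. Over all genes 2057 were called higher without UN 2 and 1753 without UN 7, against 1950 with all libraries.

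UT against UN asked what differed between the cancer side and the non-cancer side under the same carcinogen. All 43 members had a positive log2 fold change, 16 rose and 0 fell, where 1.32% of all genes tested were called higher and 4.2% lower. The median was 1.17 over the members and -0.02 over all genes. The type I class gave 7 of 10 with a median of 1.84 (Ifit1, Ifit3, Oas2, Oas3, Oasl1, Oasl2 and Mx1) and the gamma class 3 of 11 with a median of 0.76 (Irgm1, Tgtp1 and Ifi47). The others were Irf7, Usp18, Dhx58, Isg15, Ifi44 and Samd9l. The largest were Ifi44 at 2.27 ± 0.61, adjusted p = 0.073, Ifit1 at 2.20 ± 0.52, adjusted p = 0.0728, Oas3 at 2.20 ± 0.54, adjusted p = 0.0728, Oasl1 at 2.20 ± 0.64, adjusted p = 0.0769 and Tgtp1 at 2.19 ± 0.72, adjusted p = 0.0867. Irgm1 had 1.66 ± 0.42, adjusted p = 0.0728, Irf7 1.54 ± 0.40, adjusted p = 0.0728, Usp18 1.61 ± 0.42, adjusted p = 0.0728 and Isg15 2.10 ± 0.57, adjusted p = 0.0728. Gbp6 had the lowest fold, 0.07 ± 0.67, adjusted p = 0.956. Of the other classed genes called, Ifit3 had 1.84 ± 0.59, adjusted p = 0.0836, Oas2 1.83 ± 0.56, adjusted p = 0.0798, Oasl2 1.66 ± 0.51, adjusted p = 0.0801, Mx1 1.63 ± 0.51, adjusted p = 0.0808 and Ifi47 1.44 ± 0.46, adjusted p = 0.0855.

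Members of the classes that were not called in UT against UN had positive folds of varied size. In the type I class these were Ifit2 (1.18 ± 0.47, adjusted p = 0.131), Oas1a (1.88 ± 1.43, adjusted p = 0.402) and Mx2 (1.33 ± 0.50, adjusted p = 0.119). In the gamma class the GBPs were at 0.76 ± 0.40 (Gbp2, adjusted p = 0.226), 0.96 ± 0.44 (Gbp3, 0.176), 0.64 ± 0.58 (Gbp5, 0.483) and 0.32 ± 0.39 (Gbp7, 0.611), and the GTPases Irgm2, Igtp and Iigp1 at 0.81 ± 0.49, 0.76 ± 0.56 and 0.43 ± 0.68 (adjusted p = 0.29, 0.391 and 0.702). Of the feedback genes Irf9 passed the p but not the 2-fold mark (0.58 ± 0.19, adjusted p = 0.0836), and Irf1 (0.66 ± 0.32, adjusted p = 0.205), Stat2 (0.91 ± 0.35, adjusted p = 0.122) and Socs1 (1.12 ± 0.52, adjusted p = 0.182) did not pass. No member had every UT library above every UN library, which 0.0128% of all genes did (0 members and 0.00639% after TMM scaling).

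The adjusted p-values of these calls all lay between 0.0728 and 0.0867, and 34 of the 43 members had an unadjusted p under 0.05, as did 3969 of the 15658 genes. The count of called members fell to 0 without UT 2, UT 5R, UT 5L, UT 10, UN 2 or UN 6, in turn, where 4 to 12 of all genes were called higher instead of 206 and 1 to 14 lower instead of 658. It was 27 without UN 7 in the same test, where 614 of all genes were called higher and 1240 lower. Of the 6 fits with a count of 0, the one without UT 2 moved the member median most, and in the other 5 it was 1.12 to 1.21. Without UT 2 it went from 1.17 to 0.69 over the members, from 1.84 to 1.25 in the type I class and from 0.76 to 0.14 in the gamma class, and 40 folds were positive. The count was also 0 with the RNA integrity number as a covariate, with the mouse as a block and with UT and UN fitted alone, where 0 of all genes were called as well. It was 20 by DESeq2, which called 411 of all genes higher and 980 lower. With the RNA integrity number as a covariate the type I median was 1.27 and the type I less gamma difference 0.66, against 1.08. With the mouse as a block 27 of the 42 members tested in that fit had an unadjusted p under 0.05, as did 623 of 14869 genes, and the type I less gamma difference was 1.08, as without it (1.08).

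In the 7 mice with both sides sequenced, UT was above UN in all 7 for 7 members (Oas2, Ifi47, Ifi35, Rtp4, Parp14, Trim30a and Xaf1), in 6 for 11 members, in 5 for 23 and in 4 for Gbp5 and Gbp7. Mouse 7, whose UN library was the highest of its group for 35 members, and mouse 1 were the usual exceptions. The type I score of UT exceeded that of UN in 5 of the 7 mice (median difference 1.29), as did the gamma score (0.654). For type I less gamma this held in 6 of 7, all but mouse 7, with a median difference of 0.979.

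**Figure D4:**
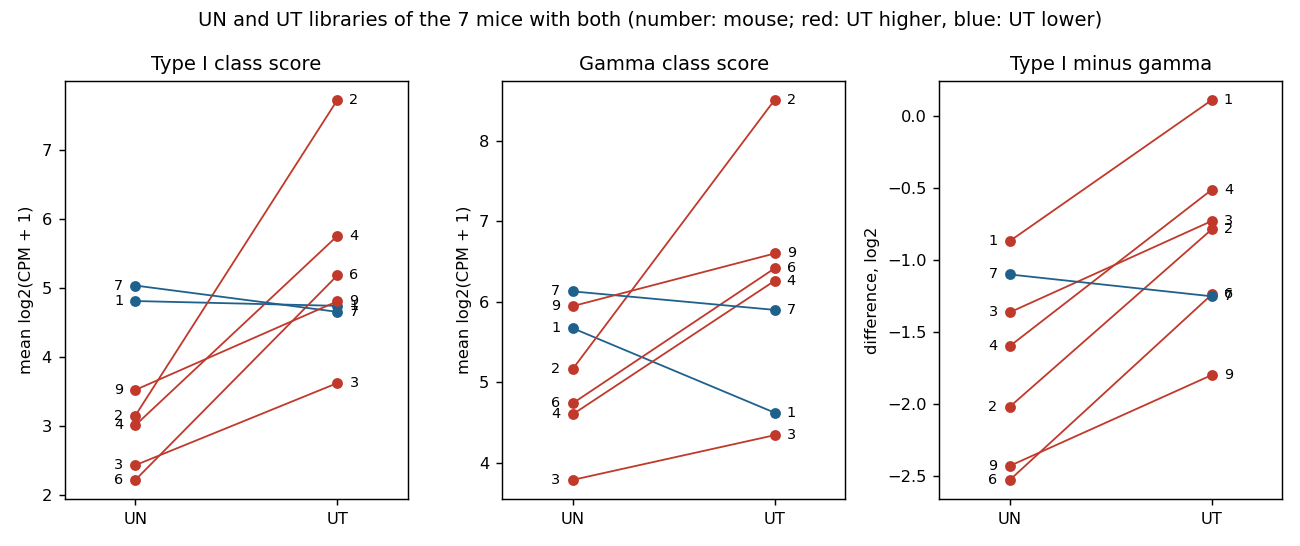
Lines join UN and UT of the same mouse for the type I score, the gamma score and their difference in the 7 mice with both, on the log2(CPM + 1) scale, with red for UT higher and blue for UT lower. Mice 1 and 7 slope down in both scores, and in the difference mouse 7 alone does.

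By the medians of the log2 fold changes, BBN bladder against untreated bladder showed the widest gap between the classes. The type I less gamma difference was 3.95, against 2.69 in UT against U, and 2.85 without untreated bladder 3. By the class scores the gap was not wider, as the median type I less gamma score moved about as far in both organs. That median went from -1.97 in untreated to 0.255 in BBN bladder, and from -3.07 in U to -0.786 in UT. Of the 43 members 23 rose and 0 fell, where 7.61% of 18050 genes tested were called higher and 5.74% lower, and the median log2 fold change was 1.52 over the members and 0.25 over all genes (0.35 under the RLE scaling of the libraries). The type I class gave 8 of 10 with a median of 3.98 and the gamma class 0 of 11 with a median of 0.03. Every BBN bladder exceeded every untreated bladder for 15 members, 5 of the type I class and 0 of the gamma class, where 4.99% of all genes did so, and after TMM scaling 21 members, 8 of them of the type I class, and 6.73% of all genes.

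Oasl1 was at 1.73, 1.88 and 2.11 CPM in the untreated bladders and at 21.6 to 259 CPM (median 104) after BBN (5.97 ± 0.65, adjusted p = 5.69e-05). Isg15 was at 1.88, 1.998 and 2.71 CPM and 26.6 to 219 CPM (median 77.4) (5.92 ± 0.91, adjusted p = 0.000726), Oas3 at 0.782, 0.799 and 0.836 and 2.62 to 112 CPM (median 44.03) (5.89 ± 1.05, adjusted p = 0.00231), and Mx1 at 0.602, 0.801 and 0.899 and 8.41 to 94.05 CPM (median 18.6) (5.52 ± 0.78, adjusted p = 0.000369). In all 4 genes the untreated bladders were close together and every BBN bladder lay above them. Ifit1 (3.94 ± 0.81, adjusted p = 0.00582), Ifit3 (2.96 ± 0.74, adjusted p = 0.0186), Oas2 (4.03 ± 0.80, adjusted p = 0.00489), Oasl2 (3.15 ± 0.82, adjusted p = 0.0234) and Mx2 (3.14 ± 0.63, adjusted p = 0.0052) rose too. Ifit1 went from 7.06, 7.98 and 10.5 to 12.0 to 303 CPM (median 92.4), Ifit3 from 6.97, 10.1 and 12.4 to 10.8 to 212 CPM (median 55.98), Oas2 from 2.59, 3.597 and 5.16 to 5.63 to 123 CPM (median 45.4), Oasl2 from 9.97, 12.2 and 19.4 to 11.52 to 297 CPM (median 82.7) and Mx2 from 1.03, 1.75 and 2.68 to 2.53 to 37.3 CPM (median 10.9). Of these 5 Ifit1 and Oas2 did not overlap with the untreated bladders, while Ifit3, Oasl2 and Mx2 did in their lowest BBN libraries. Ifit2, at 16.5, 16.7 and 18.2 CPM untreated and 5.34 to 96.9 CPM (median 26.8) after BBN, did not pass (1.17 ± 0.65, adjusted p = 0.234). Irf7 rose by 4.39 ± 0.60 (adjusted p = 0.000267), from 14.7, 16.7 and 18.96 CPM to 79.8 to 669 CPM (median 307), and Irf9 by 1.46 ± 0.43 (adjusted p = 0.0438), from 24.2, 31.9 and 44.4 to 21.7 to 168 CPM (median 83.3). Usp18 (1.41 ± 0.57, adjusted p = 0.132; 19.1 to 396 CPM, median 134 after BBN), Socs1 (0.97 ± 0.59, adjusted p = 0.275), Irf1 (0.46 ± 0.61, adjusted p = 0.641) and Stat2 (0.10 ± 0.56, adjusted p = 0.919) did not pass. Socs1 was at 3.07, 3.86 and 8.67 CPM untreated and 1.41 to 20.5 CPM (median 6.75) after BBN, Irf1 at 45.6, 53.5 and 114 and 12.6 to 215 CPM (median 88.9), and Stat2 at 51.5, 54.01 and 75.04 and 9.05 to 133 CPM (median 67.9), all with overlap. Ifih1, Dhx58 and Zbp1 rose among the sensors, and of the 11 further effectors Ifi35 alone (1.07 ± 0.44, adjusted p = 0.138) was not called.

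The gamma class values of the untreated bladders were uneven, and untreated bladder 3 stood far above the others. Igtp was at 14.8, 17.5 and 164 CPM there and at 4.92 to 147 CPM (median 29.3) after BBN (-0.34 ± 0.72, adjusted p = 0.782), Iigp1 at 20.8, 27.4 and 167 and 9.51 to 173 CPM (median 19.8) (-0.65 ± 0.79, adjusted p = 0.604), and Gbp6 at 5.96 in 2 libraries and 64.6 in the other and 3.17 to 36.6 CPM (median 8.43) (-0.83 ± 0.68, adjusted p = 0.42). BBN bladders lay between and around the untreated values in each. Ifi47, at 8.17, 9.79 and 36.3 and 11.4 to 132 CPM (median 31.9) (1.52 ± 0.63, adjusted p = 0.139), and Irgm1, at 48.9, 50.02 and 201 and 31.6 to 449.7 CPM (median 169.8) (1.08 ± 0.58, adjusted p = 0.217), had the highest folds of the class. Irgm2 was at 18.5, 23.0 and 97.6 and 5.61 to 123 CPM (median 33.6) (-0.05 ± 0.64, adjusted p = 0.967) and Tgtp1 at 12.8, 18.2 and 124 and 9.42 to 225 CPM (median 28.1) (0.32 ± 0.78, adjusted p = 0.815). Of the remaining GBPs, Gbp2 was at 40.5, 45.5 and 107 and 17.3 to 141 CPM (median 42.7) (0.03 ± 0.45, adjusted p = 0.968), Gbp3 at 21.7, 24.1 and 48.7 and 14.5 to 107 CPM (median 34.8) (0.61 ± 0.46, adjusted p = 0.381), Gbp5 at 3.44, 3.70 and 9.28 and 1.42 to 7.91 CPM (median 2.52) (-0.32 ± 0.63, adjusted p = 0.762) and Gbp7 at 28.4, 31.8 and 81.0 and 13.4 to 84.3 CPM (median 44.3) (0.18 ± 0.42, adjusted p = 0.801). In each of these the highest untreated value lay within the BBN range or above it. Without untreated bladder 3 the gamma median was 1.12, 1 gamma gene and 19 members were called, and the type I less gamma difference went from 3.95 to 2.85. Without untreated bladder 1 or 2 15 members were called each time.

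The response to BBN of the ureter was set against that of the bladder in 1 fit of all 37 libraries. The change from U to UT less the change in bladder was called for 4 members, where 14.1% of 18959 genes were (6.25% higher and 7.87% lower in ureter): Irf7 (-1.68 ± 0.65, adjusted p = 0.0988), Rtp4 (-1.84 ± 0.62, adjusted p = 0.0696) and Xaf1 (-1.92 ± 0.74, adjusted p = 0.0966) responded more in bladder and Usp18 (1.96 ± 0.68, adjusted p = 0.072) more in ureter. For Usp18 the start levels differed: untreated bladder held 62.4, 63.7 and 74.1 CPM and U 11.2 to 18.3 CPM (median 13.7), a log2 fold change of -1.92 ± 0.57 for U against untreated bladder (adjusted p = 0.0209), while UT and BBN bladder had medians of 134 and 134 CPM. Rtp4, a chaperone of receptors that restrains the interferon response, was higher in U than in untreated bladder (1.38 ± 0.54, adjusted p = 0.0909), and these were the 2 members called there, where 15.2% of all genes were (6.62% higher and 8.61% lower in U). The change from U to UN less that of bladder was called for 4 members, all lower, where 0.469% of all genes were lower, 1.74% higher and 2.21% either: Irf7 (-3.24 ± 0.71, adjusted p = 0.0125), Isg15 (-3.87 ± 1.04, adjusted p = 0.0512), Rtp4 (-2.87 ± 0.67, adjusted p = 0.0209) and Xaf1 (-2.98 ± 0.79, adjusted p = 0.0477). Of the type I and gamma classes 0 genes were called in either difference. Without the 4 libraries of lowest RNA integrity Usp18 and Xaf1 were no longer called for UT. Over all alternative fits of the UT difference, including that with mouse as random, members lost the call 3 times and gained it 2 times.

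The level of Oas1a split by mouse. In all 15 libraries of BBN mice 3 to 7 it was at most 0.463 CPM, ureter and bladder alike, and its neighbour Oas1g was at most 0.562 CPM. In the 22 libraries of the other 8 mice, tap water mice included, Oas1a was at least 3.83 CPM and Oas1g at least 1.37 CPM, up to 383 CPM of Oas1a in UT 2. Oas2 was at 3.14 to 83.3 CPM and Oas3 at 2.47 to 114 CPM in the 15 libraries, so both were read there. Reads of Oas1a and Oas1g, near copies of each other, may be exchanged in counting, and the cause of the split was not tested. Tap water mice held 3.83 to 10.03 CPM. The log2 fold change of UT against U, 2.98 ± 1.62, averages these mice, and it was -1.45 in the limma fit with random mouse effects and -0.96 by limma-trend. Without Oas1a the type I less gamma difference kept its direction in all 4 comparisons.

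**Figure D5:**
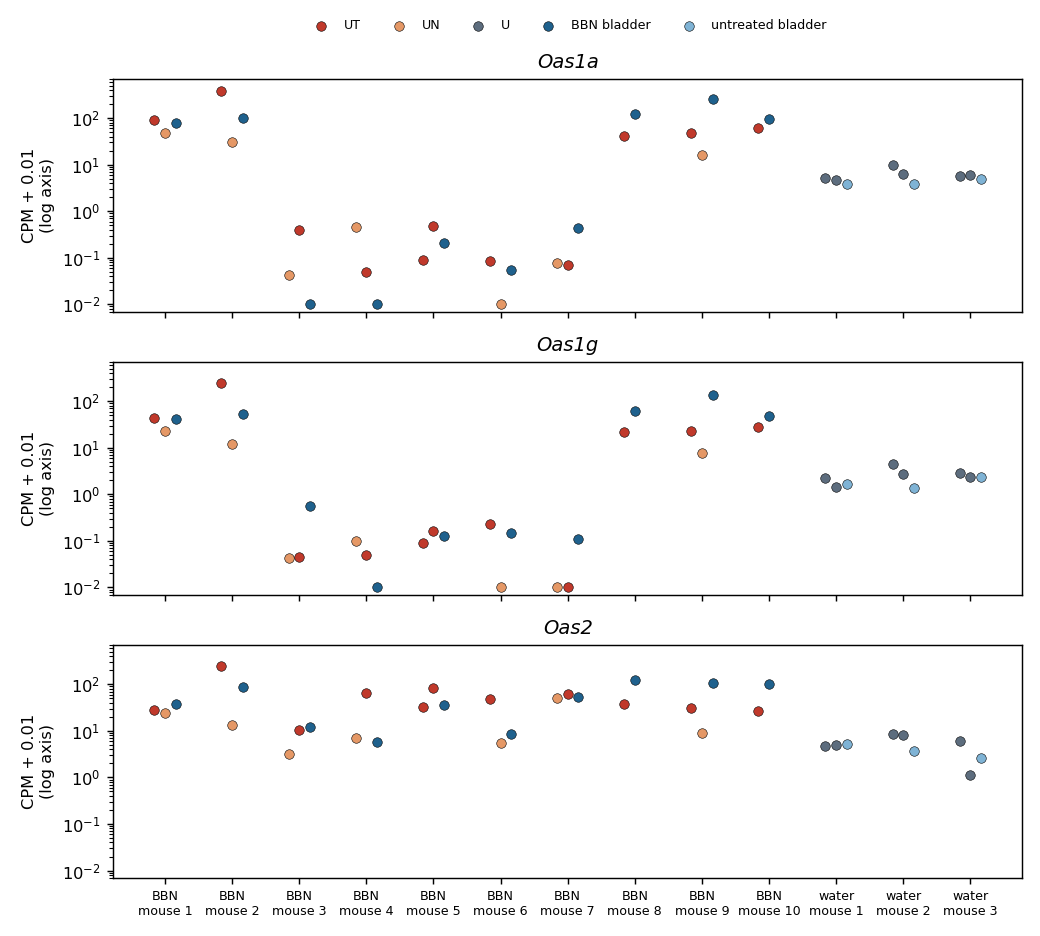
Oas1a, Oas1g and Oas2 are shown as CPM + 0.01 on a log axis, by mouse, with each library of the mouse as a point. BBN mice 3 to 7 lie at or under 0.463 CPM for Oas1a in every library and at 3.14 CPM or above for Oas2.

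Levels of different members can be compared per kilobase of exon. By the median of UT, Rtp4 (72.9 CPM per kb), Ifi35 (52.4), Bst2 (49.5) and Usp18 (48.0) were highest among the members, with Igtp (38.8) and Irgm1 (38.5) the highest of the gamma class. In BBN bladder Isg15 (102 CPM per kb) and Irf7 (81.3) led. Within UT the genes of a class varied together: the median Spearman correlation over the 11 libraries was 0.768 for the 36 pairs within the type I class without Oas1a, 0.873 for the 55 pairs within the gamma class and 0.718 for the 99 pairs between them. In UN it was 0.661, 0.643 and 0.429 over 7 libraries and in BBN bladder 0.77, 0.636 and 0.624 over 10. The points share their library and its depth.

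Interferon genes themselves were scarce. In the ureter fit 0 of the 21 ligand genes passed the filter on low counts. Ifnb1 had counts in 11 of the 37 libraries, at most 0.367 CPM, and Ifng in 23, at most 2.09 CPM in UT 2. In bladder Ifne, Ifnk and Ifnz were tested, with log2 fold changes of 4.50 ± 2.01, adjusted p = 0.155, 4.77 ± 1.88, adjusted p = 0.125 and 1.31 ± 0.84, adjusted p = 0.299, and none was called. Ifne had the highest level of the ligands, 11.2 CPM in BBN bladder 1, where Ifna15 (2.999 CPM) and Ifnk (2.05 CPM) were highest too, and Ifnz had counts in all 37 libraries. BBN bladder 1 is among the libraries of lowest RNA integrity and held 6335556 counts. Several other ligand genes, such as Ifna1, Ifna2 and Ifna5, were highest in BBN bladder 3 or 4, also of low RNA integrity. In UT against UN 0 of 6 receptor genes, 0 of 14 signal transduction genes and 0 of 16 sensing genes were called, and of 42 further interferon-stimulated genes 8 rose, led by Ifit1bl1 (2.53), Ifit3b (2.21) and Ifi44l (2.05), and Ifi27l2a fell by 2.25. In UT against U 2 receptor genes rose, Ifngr2 by 1.67 and Ifnlr1 by 2.05; these were named after their values were seen.

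Markers of immune cells rose in some of the comparisons and not in others, and their part in the result was not tested. In UT against U 6 of 7 neutrophil, 6 of 10 macrophage, 6 of 12 T and NK cell and 7 of 8 B and plasma cell markers rose, while 6 of 8 smooth muscle and 8 of 8 adipocyte markers fell. Summed adipocyte markers were at 43880 to 62280 CPM (median 47720) in U, 8802 to 50670 (18580) in UN and 46.3 to 33140 (8354) in UT. Of 14 urothelial markers 5 rose and 4 fell, with a median sum of 2734 CPM in U and 6599 CPM in UT. In UT against UN 5 of 8 smooth muscle and 1 of 8 adipocyte markers fell, and 0 of the 8 adipocyte markers had a positive fold (median -1.70). Of the immune markers 0 of 12 T and NK cell, 0 of 10 macrophage and 0 of 7 neutrophil markers were called there. The summed T and NK cell markers, the main source of IFN-gamma, were at 19.2 to 51.6 CPM in U, 14.0 to 106 in UN and 2.05 to 260 in UT, and at 14.9 to 28.3 in untreated and 2.67 to 73.9 in BBN bladder. Neutrophil markers were at 11.6 to 24.4 CPM in U, 65.9 to 553 in UN, 47.2 to 641 in UT, 8.82 to 11.03 in untreated bladder and 19.0 to 250 in BBN bladder, and every ureter of a BBN mouse exceeded every U library. In UN against U 7 of 7 neutrophil, 6 of 10 macrophage and 5 of 8 B and plasma cell markers rose. In bladder 4 of 7 neutrophil markers rose, and 7 of 14 urothelial markers fell and 1 rose, their sum being 20860 to 21960 CPM in untreated and 1406 to 16590 CPM in BBN bladder. Of 5 tested markers of plasmacytoid dendritic cells, the classic source of type I interferon, 2 rose in UT against U (Ccr9 by 1.41 and Klk1 by 6.404). In UN against U 1 rose (Ccr9), in UT against UN 1 rose (Klk1), and in bladder 0 of 6 were called. Klk1 reached 307 CPM in UT 4, the library with 2303 CPM of kidney tubule markers. The sum of the plasmacytoid markers was at 341 to 611 CPM in U, 79.99 to 4505 in UN, 198 to 3356 in UT, 2134 to 2418 in untreated bladder and 1576 to 10280 in BBN bladder. Ly6d was the most abundant by the group medians, and Siglech, the defining marker, was at most 10.7 CPM in any library. Whether the Klk1 values and the sum come from these cells was not tested.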

How the data were processed

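WTS was made from ureter and bladder RNA of 13 mice, and 1 table of 37 columns was used, each column matched to a library by name. The authors mapped the reads to GRCm38/mm10 and deposited estimated counts per gene symbol, without normalization. TopHat2 2.1.1 and Cuffdiff 2.2.1 are named in the submitters' processing notes, and the library kit was not said to keep strand, so overlapping antisense genes cannot be told apart. Fractional values (21.1% of those above 0) were rounded for the tests. Total counts per library give the depth, which sets the precision of low genes.

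Groups came from the sample labels. Differential expression was tested in edgeR 4.0.16 under R 4.3.3 (quasi-likelihood, TMM, filterByExpr by group), with UT, UN and U in 1 fit, both bladder groups in another and all 37 libraries for differences between organs. A gene was called at a Benjamini-Hochberg adjusted p under 0.1 and at least 2-fold, the thresholds of the study. Libraries of 1 mouse entered as independent, so the p-values for U, both sides of 3 mice, are too small, which the fits with sides summed or mouse as random address. The study reported 10 UT libraries, and all 11 labelled as the cancer side were kept here. DESeq2 1.42.0 and limma 3.58.1 served as alternatives. Class scores used a pseudocount of 1 and were computed with Python 3.11.15, numpy 2.4.6 and pandas 2.3.3, and figures were drawn with matplotlib 3.10.9. Promoters were matched by symbol. Motifs were searched in windows of 250 bases before to 50 after the start.

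Values by group, folds and p-values were given for both classes, Isg15, Irf7, Irf1, Irf9, Stat2, Usp18, Socs1 and any member called against the others, with the group values printed once and, in UN against U, 9 gamma genes by their range; of each pathway list the genes called in UT against UN with the largest change were named, with Ifnb1 and Ifng; 1 further gene of that rule is not reported here. The members and lists were chosen with earlier results of these data known. UT and UN libraries of 1 number come from the same mouse, and after subtracting the group means their profiles correlated at a median of 0.0319 in 7 such pairs, against -0.00516 in 70 pairs of different mice. On simulated counts for UT against UN, 88% of 200 genes changed by 4-fold were recovered among 15560, with 9 false calls, and in bladder 9.5% of 200 among 17407, with 1 false call. With no gene changed, 0 were called in both. The simulated libraries were independent and shared no mice, and they did not differ in RNA integrity or tissue make-up. The rates therefore describe the test on such counts and not its reliability on the real libraries.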

Additional observations from a re-analysis of the deposited data

Results flagged for a closer look

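In 138 groups of 4 to 10 libraries compared gene by gene, 4 had a library far from the rest by Dixon's criterion, which chance exceeds in about 1 of 20. That is no more than chance gives. UT, with 11 libraries, and untreated bladder, with 3, were outside that size, so UT 2 and untreated bladder 3 could not be flagged. On the log2(CPM + 1) scale, Ifi35 in UN was lowest in UN 6, at 4.62 with the next at 5.82, and UN 6 is 1 of the 4 libraries of lowest RNA integrity. In U, Oas1a was highest in U 2R (3.46, the next 2.85), Oas2 was lowest in U 3L (1.08, the next 2.50) and Dhx58 was highest in U 3R (3.46, the next 2.84).

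The interaction term of the edgeR fit of 37 libraries, UT or UN less bladder, was called for 5 members. It was called for 14.1% of all 18959 genes for UT and 2.21% for UN, against 4 of the 43 members each. For UT the members were thus called no more often than all genes. For UT less bladder the log2 differences were -1.68 for Irf7, 1.96 for Usp18, -1.84 for Rtp4 and -1.92 for Xaf1, and Usp18 and Xaf1 were no longer called without the 4 libraries of lowest RNA integrity. For UN less bladder they were -3.24 for Irf7, -3.87 for Isg15, -2.87 for Rtp4 and -2.98 for Xaf1. Usp18 and Rtp4 also differed between U and untreated bladder, Usp18 lower in U and Rtp4 higher.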

How the results depend on the processing

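The count of members higher in UT than in UN was 16. It was 6 by limma-trend and 0 with the RNA integrity number as a covariate, with mouse as random, with the sides of 1 mouse summed, with UT and UN alone and with the mouse as a replicate block, and it ranged from 0 to 27 with 1 library left out. Over all genes 46 were called higher by limma-trend and 0 to 5 in the fits listed with a count of 0, against 206. The block, which the shared mice justify, kept the type I less gamma difference at 1.08, and left 27 of 42 members tested with an unadjusted p under 0.05, beside 623 of 14869 genes. For UN against U 9 members were higher, 14 with the library code range as a covariate, 1 with mouse as random, 0 with sides summed and 5 to 12 with 1 library left out. Genes called higher over all 15658 went from 1950 to 2175 with the code range covariate. For UT against U 0 members were lower, and 1 was by limma-trend and with mouse as random; with 1 library left out 0 to 1 were lower and 25 to 30 higher, against 29. In bladder 23 were higher and 15 to 26 with 1 library left out. The members called in U against untreated bladder were 2, and 4 with mouse as random. In the response of UT less bladder 4 were called, and 2 without the 4 libraries of lowest RNA integrity; for UN less bladder 4 were called, 7 without those libraries and 12 by DESeq2. The type I less gamma difference stayed above 0 in every fit of the 4 comparisons, was 0.66 for UT against UN with the RNA integrity covariate, and had ranges under leave-one-out of 0.81 to 1.44 (UT against UN), 1.49 to 1.89 (UN against U), 2.58 to 2.85 (UT against U) and 2.85 to 4.12 (bladder). Of 5761 member values, 132 changed sign, in 44 pairs of member and comparison, and 0 of these were called; 307 lost the call and 115 gained it. Why these values moved was not tested, beyond the fewer libraries in a fit. Depth limits the ligand genes and the low end of Oas1a, and 3 untreated bladders limit the bladder comparison.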

Other observations

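Among the 42 further interferon-stimulated genes, chosen for naming after their values were seen, the chemokines and Ido1 went different ways in ureter. In UT against U 23 rose and 4 fell by the edgeR test: Cxcl10 (log2 fold change 3.21) and Cxcl11 (3.04), which draw T cells, and Ido1 (8.29), which degrades tryptophan, rose, whereas Cxcl9 (-1.61), which is induced mainly by IFN-gamma, Gbp11 (-2.41), Ifi27 (-1.89) and Ifi27l2a (-2.47) fell. In bladder 14 rose and 0 fell, Cxcl10 by 2.80, Cxcl11 by 5.07 and Ifi27 by 1.67 among them. Socs3, a feedback inhibitor induced mainly by STAT3, rose by 3.69 in UT against U and by 3.19 in bladder. Of 16 sensing genes outside the members, 11 rose in UT against U, including Tmem173 (STING), 7.999-fold, and on the log2 scale Aim2 by 2.81 and Mb21d1 (cGAS) by 2.06, and 6 rose in UN against U. Over all genes tested 18.7% were called higher and 12.3% lower in UT against U, 12.5% higher in UN against U and 7.61% higher in bladder.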
